A study of Homo sapiens with 5 samples.

Results

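The genes of the acetylcholine receptor and of the neuromuscular junction examined here were 10 in number, taken by symbol from the RH4 expression table: CHRNA1, CHRNB1, CHRND and CHRNG, AGRN, LRP4, MUSK, DOK7 and RAPSN, and ACHE. All 10 were present among the 13822 genes of the table, and all 10 were among the 13681 genes that were tested. RH4 is an established cell line of alveolar rhabdomyosarcoma, a tumour whose cells express skeletal muscle genes without completing muscle differentiation. The study depleted circVAMP3, a circular RNA formed from exons of the VAMP3 gene, and asked by poly-A+ RNA-sequencing which mRNAs differed afterwards. RH4 cells received either the control siRNA (si-SCR, n = 3) or an siRNA against the back-splicing junction of circVAMP3 (si-circVAMP3, n = 2). Both siRNAs were used at 30 nM with Dharmafect-1. RNA came from cells collected 24 h after a change of medium, itself made 24 h into the treatment. All 5 libraries came from this single cell line grown without nerve cells, and mRNA levels are given as FPKM, the count of fragments scaled to the length of the gene and to the size of the library.

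The siRNA is shown because it defines the treatment. Against the exons of the canonical VAMP3 transcript, its first 8 bases matched the end of exon 4 (chr1:7778118-7778169, GRCh38, + strand), and the next 11 bases, in capitals, matched the start of exon 3 (chr1:7777160-7777318). The last 2 bases are the overhang.
si-circVAMP3: caucaucgGUGGUGGACAUuu

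At the neuromuscular junction the motor nerve releases acetylcholine onto receptors that are packed in the muscle membrane under the nerve ending. Agrin from the nerve binds LRP4 and thereby switches on the kinase MuSK, which, with the adaptor Dok-7, leads rapsyn to gather the receptors, while acetylcholinesterase ends the signal by cleaving the transmitter. Muscle precursors and fetal or denervated muscle make a receptor of alpha, beta, delta and gamma subunits, and an epsilon subunit replaces gamma in innervated adult muscle.

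The cells had the markers of their labelled lineage. Desmin (DES), the intermediate filament of muscle, was at 291, 291 and 249 FPKM in si-SCR replicates 1 to 3 and at 266 and 248 FPKM in si-circVAMP3 replicates 1 and 2. All 10 genes of a skeletal muscle list were in the table. ACTC1, an actin of immature muscle, was the most abundant of them in every control, at 313, 355 and 313 FPKM, and DES was the most abundant after knock-down. Genes of motor neurons and of the nerve terminal were low or not listed, with 3 of 7 in the table. ISL1 was the most abundant of them. Their summed level was 2.85, 2.31 and 2.77 FPKM in the si-SCR libraries and 2.19 and 2.21 FPKM after circVAMP3 knock-down. None of the 3 was called by limma or limma-voom, 1 was lower at an unadjusted p under 0.05, and their median log2 fold change was -0.30. The terminal's defining genes CHAT, SLC18A3 and SLC5A7 were not in the table.

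Depth was close in the controls and differed in the knock-down pair. The fragments assigned to genes, recovered from the FPKM values, numbered 26931410, 25522093 and 25424311 in si-SCR replicates 1 to 3. The si-circVAMP3 libraries had 18974098 and 29359072. Among the 10 genes, the fewest fragments in any library ranged from 77 for ACHE to 9977 for CHRNA1, which corresponds to a counting error of 11.4% and 1.00%, and these figures cover counting error only.

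Control replicate 3 stood apart from the other controls. Its median absolute log2 difference per gene was 0.12 from si-SCR replicate 1 and 0.10 from replicate 2, while replicates 1 and 2 differed by 0.081. The difference followed base composition: across 13642 genes, which are not independent replicates, the deviation of replicate 3 from the mean of replicates 1 and 2 had a Pearson r of -0.43 with the GC content of the transcript. Genes with at least 65% GC were lower in replicate 3 by a median log2 difference of -0.38, and genes under 40% GC were higher by 0.052. Replicates 1 and 2 also differed in the GC-richest genes, where replicate 1 was higher by a median of 0.16. This bears on 4 of the 10 genes, namely AGRN (67.58% GC), DOK7 (66.48%), ACHE (65.75%) and RAPSN (62.45%). Their log2 deviations in replicate 3 were -0.70, -0.54, -0.56 and -0.28. The other 6 genes, with 37.96% to 56.99% GC, deviated by between -0.082 and 0.21. Results are given with all 5 libraries, and where a call, a direction or a list's count differed, the values without si-SCR replicate 3 or after a GC correction are added.

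**Figure D1:**
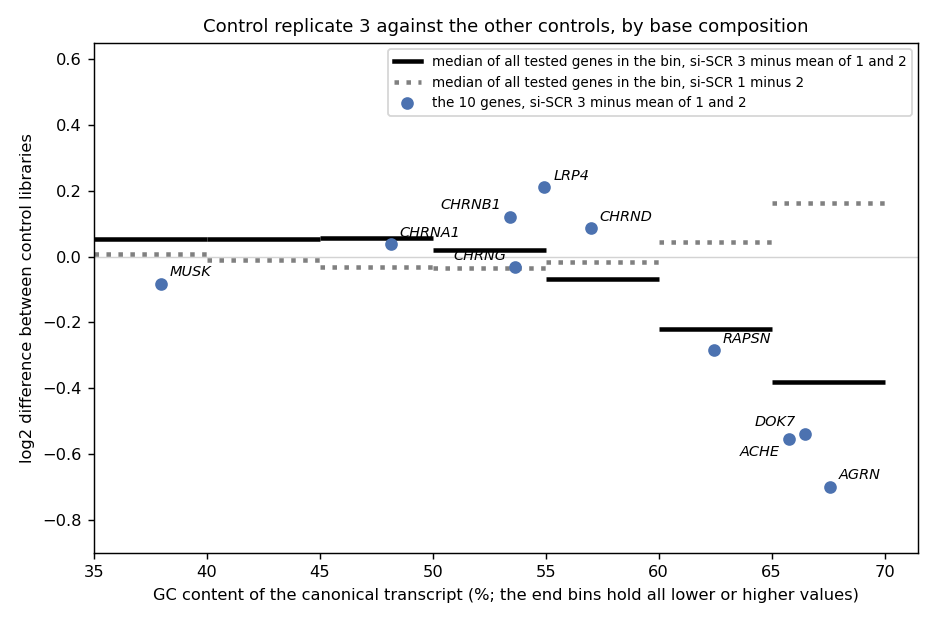
The horizontal axis is the GC content of a gene's canonical transcript in percent and the vertical axis is a log2 difference between control libraries. Solid bars are the median over all tested genes in a GC bin of si-SCR replicate 3 minus the mean of replicates 1 and 2, dotted bars are the same for replicate 1 minus replicate 2, and points are the 10 genes; the solid bars drop to -0.22 and -0.38 in the GC-richest bins, where RAPSN, ACHE, DOK7 and AGRN lie.

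VAMP3 itself, the gene from which the circular RNA is spliced, was examined first. The poly-A+ libraries measure its linear mRNA and not circVAMP3, for which no value is given here. Linear VAMP3 stood at 36.4, 35.4 and 37.4 FPKM in the si-SCR libraries and at 29.4 and 30.2 FPKM in the si-circVAMP3 libraries. The groups did not overlap, and VAMP3 fell, with a log2 fold change of -0.29 (SE 0.044, limma, adjusted p = 0.00507). Without si-circVAMP3 replicate 1 the log2 fold change was -0.27 and the adjusted p 0.0524.

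Of the 4 receptor subunit genes, 3 fell after circVAMP3 knock-down. CHRNG, the fetal gamma subunit, fell furthest and its mean level dropped by 34.75%, while CHRND dropped by 19.51% and CHRNB1 dropped by 14.79%. CHRNA1, which encodes the alpha subunit that carries the main part of the acetylcholine binding site, did not pass the test. Among the other 6 genes none passed by limma with all 5 libraries and no GC correction. ACHE, RAPSN and DOK7 passed on the lower side without si-SCR replicate 3 and also after the GC correction, and MUSK passed by limma-voom. The 10 genes thus held 3 calls by limma at an adjusted p under 0.05, all on the lower side. Over all genes tested, 27.5% were called in either direction, 14.7% on the lower side and 12.8% on the higher side, so 3 of 10 was close to the first share and above the second. The median log2 fold change of the 10 genes was -0.22, beside a median of 0.003 over all genes tested.

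**Figure D2:**
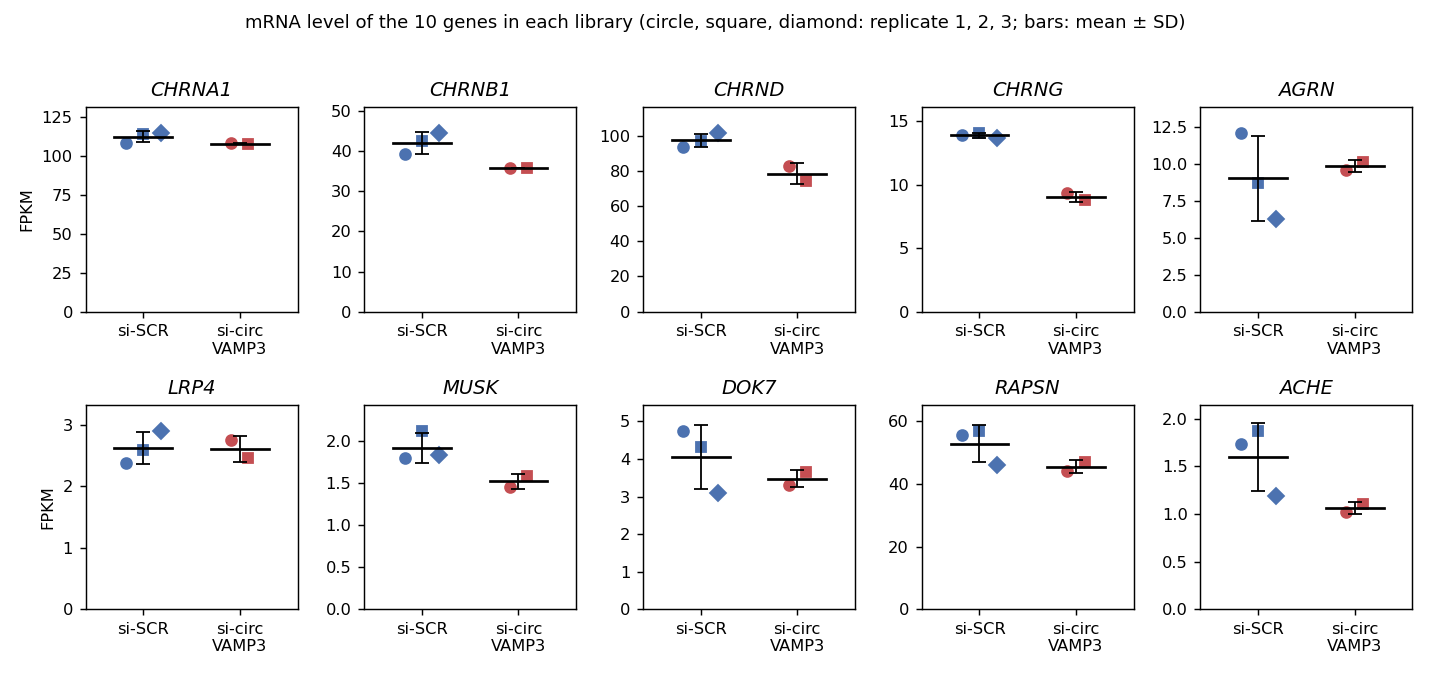
Each panel shows 1 gene, with FPKM from 0 on the vertical axis and the si-SCR (blue) and si-circVAMP3 (red) libraries side by side; circles, squares and diamonds are replicates 1, 2 and 3, and bars give the mean and SD. CHRNA1, CHRNB1, CHRND, CHRNG, MUSK and ACHE show red points wholly under blue ones, beside 28.6% of all tested genes. In the AGRN, DOK7, RAPSN and ACHE panels the blue diamond of replicate 3 is the lowest control.

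CHRNG encodes the gamma subunit, the part of the receptor that marks the fetal form. Its level was 13.9, 14.0 and 13.7 FPKM in si-SCR replicates 1 to 3 and 9.34 and 8.77 FPKM in si-circVAMP3 replicates 1 and 2. Every knock-down library was under every control, and the controls lay close together. The group means were 13.9 ± 0.185 FPKM (SD, n = 3) and 9.06 ± 0.4005 FPKM (SD, n = 2), and the log2 fold change on the log2(FPKM + 0.1) scale was -0.61 (SE 0.052, 95% confidence interval -0.73 to -0.49, adjusted p = 0.000759). CHRNG (ENSG00000196811, chr2:232539692-232548115, + strand) passed a rule that also required an absolute log2 fold change over 0.58. With all 5 libraries and no GC correction it was the only one of the 10 genes to do so, beside 4.14% of all tested genes on the lower side. It stood near that limit, at -0.57 both without si-circVAMP3 replicate 2 and with a pseudocount of 1 FPKM, where it would not pass the rule. ACHE would pass it without si-SCR replicate 3 (-0.71) and after the GC correction (-0.60). In bulk RNA, fewer cells that express a gene and less of its RNA per cell cannot be told apart. TIGD1 lies on the opposite strand over 2918 of CHRNG's 4362 exonic bases, and fragments were counted by strand. TIGD1 had 4.01, 4.31 and 4.34 FPKM in the controls and 3.19 and 4.40 FPKM after knock-down, overlapping groups with a log2 fold change of -0.17 (interval -0.48 to 0.15).

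CHRND encodes the delta subunit and lies directly before CHRNG on the same strand of chromosome 2 (ENSG00000135902, chr2:232525993-232536667). The controls had 93.6, 97.4 and 101 FPKM, and the si-circVAMP3 libraries had 82.6 and 74.2 FPKM. Both knock-down libraries were under all controls, and they differed from each other more than the controls did. Its mean was 97.4 ± 3.92 FPKM (SD, n = 3) against 78.4 ± 5.93 FPKM (SD, n = 2), a log2 fold change of -0.31 (SE 0.059, interval -0.46 to -0.17, adjusted p = 0.0105). Without si-circVAMP3 replicate 2, the lower library, the log2 fold change was -0.24 and the adjusted p 0.0784.

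CHRNB1 encodes the beta subunit, which takes part in tying the receptor to rapsyn (ENSG00000170175, chr17:7445061-7457710, + strand). In the controls it stood at 39.2, 42.5 and 44.5 FPKM and after circVAMP3 knock-down at 35.9 and 35.8 FPKM. The groups did not overlap, although the lowest control, replicate 1, was near the knock-down pair. Mean levels of 42.1 ± 2.64 FPKM (SD, n = 3) and 35.9 ± 0.0173 FPKM (SD, n = 2) gave a log2 fold change of -0.23 (SE 0.058, interval -0.37 to -0.090, adjusted p = 0.0293). This was the weakest of the 3 calls. A non-coding gene on the same strand shares 630 of CHRNB1's 4332 exonic bases and was not in the table. Without si-SCR replicate 2 the value was -0.22 with an adjusted p of 0.0908, and without si-circVAMP3 replicate 1 or 2 it was -0.23 in both cases with an adjusted p of 0.138 and 0.137. Without the variance trend of the limma fit the adjusted p was 0.0780.

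CHRNA1 was the most abundant of the 10 genes (ENSG00000138435, chr2:174747592-174787935, - strand). It had 108.7, 114.3 and 114.5 FPKM in the si-SCR libraries and 108.1 and 107.6 FPKM in the si-circVAMP3 libraries. The knock-down libraries were just under the lowest control, so the groups lay side by side without overlapping. With means of 112 ± 3.33 FPKM (SD, n = 3) and 108 ± 0.393 FPKM (SD, n = 2), the log2 fold change was -0.060 (SE 0.041) and its interval, -0.16 to 0.037, included 0 (adjusted p = 0.316). The lower limit was above the estimates for CHRNB1, CHRND and CHRNG, and whether CHRNA1 differed from the other subunits in its response was not tested.

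Set against CHRNA1 within each library, the other subunits had smaller shares after knock-down. The ratio of CHRNG to CHRNA1 was 0.128, 0.123 and 0.119 in the controls and 0.0864 and 0.0816 in the si-circVAMP3 libraries. For CHRND the ratio was 0.861, 0.852 and 0.886 against 0.764 and 0.690. The CHRNB1 ratio was 0.361, 0.372 and 0.388 against 0.332 and 0.333. In none of the 3 ratios did the groups overlap, and these ratios of FPKM are given as a description without a test. All 3 numerators are genes called lower and CHRNA1 changed little, so the ratios restate those calls. No share of other genes is at hand for such ratios. The epsilon gene CHRNE was not in the table and is not analysed here.

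Promoter sequences are shown for subunit genes because CHRNB1 and CHRND fell together and CHRNA1 serves as the subunit gene that did not pass the test. Myogenic factors such as MyoD and myogenin bind E-boxes, written CANNTG, and the same letters read on either strand. RefSeq promoter entries (GRCh38.p14) were at hand for 6 of the 10 genes, and CHRNG, RAPSN, LRP4 and AGRN had no entry. The 250 bases before the RefSeq start are printed with E-boxes in capitals: CHRNA1 from chr2:174764473-174764722 (- strand), CHRNB1 from chr17:7444811-7445060 (+ strand) and CHRND from chr2:232525910-232526159 (+ strand). The RefSeq start can lie inside the longer gene model whose coordinates are given with each gene.
CHRNA1: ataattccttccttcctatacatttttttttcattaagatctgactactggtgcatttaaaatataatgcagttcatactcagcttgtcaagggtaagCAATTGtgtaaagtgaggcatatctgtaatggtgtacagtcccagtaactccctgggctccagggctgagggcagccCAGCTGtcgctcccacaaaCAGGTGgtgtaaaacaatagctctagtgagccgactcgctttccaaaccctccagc
CHRNB1: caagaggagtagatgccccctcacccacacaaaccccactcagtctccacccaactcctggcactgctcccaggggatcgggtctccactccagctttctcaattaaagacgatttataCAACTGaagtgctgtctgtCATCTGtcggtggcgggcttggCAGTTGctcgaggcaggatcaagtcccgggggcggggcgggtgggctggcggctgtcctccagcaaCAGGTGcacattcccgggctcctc
CHRND: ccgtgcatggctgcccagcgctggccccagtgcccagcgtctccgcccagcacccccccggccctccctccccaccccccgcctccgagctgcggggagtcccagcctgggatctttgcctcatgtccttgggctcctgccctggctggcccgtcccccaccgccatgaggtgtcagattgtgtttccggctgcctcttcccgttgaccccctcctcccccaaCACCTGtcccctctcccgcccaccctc

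The capitals mark 3 E-boxes in the CHRNA1 window, 4 in that of CHRNB1 and 1 in that of CHRND. Of 35116 promoter windows of the same length, 61.82% held at least 1 such E-box. The version CAGCTG, which 13.99% of windows held, was present in the CHRNA1 window and in that of MUSK, which also held 3 E-boxes. Of the other windows not printed, 1 of the 3 for ACHE held 3 E-boxes and the rest of them 0, and those for DOK7 held 1 and 0. Another version, CAGGTG on either strand, was in all 3 printed windows and in 17.49% of all windows. An N-box core, CCGGAA on either strand, the element through which GABP acts on receptor genes in synaptic nuclei, occurred in 14.53% of windows and once in that of CHRND. A match of letters is a description, and no binding was measured.

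AGRN encodes agrin, the organiser of the postsynaptic membrane (ENSG00000188157, chr1:1020120-1056118, + strand). Its level spread widely in the controls, at 12.03, 8.71 and 6.27 FPKM, and lay at 9.56 and 10.1 FPKM after circVAMP3 knock-down. The knock-down libraries fell inside the control range, of which replicate 3 was the lowest. With means of 9.004 ± 2.89 FPKM (SD, n = 3) and 9.84 ± 0.390 FPKM (SD, n = 2), the log2 fold change was 0.18 and its interval ran from -0.39 to 0.74 (adjusted p = 0.621). The sign depended on replicate 3, since without it the value was -0.058 (interval -0.40 to 0.28), and without replicate 1 it was 0.41 (adjusted p = 0.101). Nothing about the direction of agrin can be read from these libraries.

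LRP4, the receptor to which agrin binds, was low (ENSG00000134569, chr11:46856717-46918642, - strand). The controls had 2.38, 2.60 and 2.90 FPKM and the knock-down libraries 2.76 and 2.46 FPKM. The groups overlapped fully, with means of 2.63 ± 0.258 (SD, n = 3) and 2.61 ± 0.212 FPKM (SD, n = 2). Its log2 fold change of -0.0078 had an interval of -0.26 to 0.25 (adjusted p = 0.964), and without si-SCR replicate 3 the value was 0.063 (interval -0.18 to 0.30). LRP4-AS1, a non-coding RNA on the opposite strand that shares 515 exonic bases with LRP4, fell from 0.549, 0.635 and 0.709 FPKM to 0.296 and 0.275 FPKM. For this antisense RNA the log2 fold change was -0.92 (adjusted p = 0.00602), from as few as 9 fragments in a library, and it was looked at only because of the overlap. Without si-circVAMP3 replicate 2 its value was -0.88 with an adjusted p of 0.05065.

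MUSK encodes the kinase at the centre of the agrin signal (ENSG00000030304, chr9:110668779-110806558, + strand). It had 1.79, 2.11 and 1.83 FPKM in the si-SCR libraries and 1.46 and 1.58 FPKM in the si-circVAMP3 libraries. Both knock-down libraries were under all controls. The means were 1.91 ± 0.175 (SD, n = 3) and 1.52 ± 0.0874 FPKM (SD, n = 2), and the log2 fold change of -0.31 (SE 0.11, interval -0.57 to -0.055) had an unadjusted p of 0.0241 by limma and did not pass after adjustment (adjusted p = 0.0735). A limma-voom fit on the recovered fragments gave -0.32 and an adjusted p of 0.0435, the lowest of the 17 alternatives for this gene, which reached up to 0.297. As few as 248 fragments in a library stood behind this gene, a counting error of 6.35%.

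DOK7 encodes the adaptor that binds MuSK and keeps it active (ENSG00000175920, chr4:3463306-3501473, + strand). Its level was 4.74, 4.33 and 3.09 FPKM in the controls and 3.32 and 3.65 FPKM after circVAMP3 knock-down. Control replicates 1 and 2 were above both knock-down libraries and replicate 3 was below them. The mean went from 4.05 ± 0.859 (SD, n = 3) to 3.48 ± 0.235 FPKM (SD, n = 2), with a log2 fold change of -0.19 and an interval of -0.61 to 0.22 (adjusted p = 0.448). Without si-SCR replicate 3 the log2 fold change was -0.37 (SE 0.086, adjusted p = 0.0220). Without si-SCR replicate 1 it was -0.072 (adjusted p = 0.779), and over the 17 alternatives the adjusted p of DOK7 ranged from 0.0112 to 0.779.

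RAPSN encodes rapsyn, the scaffold that holds the receptors in clusters, and after CHRNA1 and CHRND it was the most abundant of the 10 genes (ENSG00000165917, chr11:47437764-47449143, - strand). The si-SCR libraries had 55.6, 56.8 and 46.1 FPKM and the si-circVAMP3 libraries had 44.1 and 47.0 FPKM. Again replicates 1 and 2 were above both knock-down libraries, while replicate 3 lay between them. From means of 52.8 ± 5.85 (SD, n = 3) and 45.5 ± 2.06 FPKM (SD, n = 2), the log2 fold change was -0.21 and the interval, -0.43 to 0.011, just included 0 (adjusted p = 0.139). Leaving out si-SCR replicate 3 gave -0.30 (SE 0.046, adjusted p = 0.00550), leaving out replicate 1 gave -0.17 (adjusted p = 0.267), and the 17 alternatives spanned adjusted p-values of 0.00361 to 0.442.

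ACHE encodes acetylcholinesterase and was the lowest of the 10 genes (ENSG00000087085, chr7:100889994-100896974, - strand). It had 1.73, 1.87 and 1.19 FPKM in the controls and 1.02 and 1.11 FPKM after knock-down. The groups did not overlap, with control replicate 3 only slightly above the knock-down pair. Means were 1.596 ± 0.357 (SD, n = 3) and 1.06 ± 0.0624 FPKM (SD, n = 2). The log2 fold change of -0.52 (SE 0.19, interval -0.97 to -0.075) had an unadjusted p of 0.0282 by limma and an adjusted p of 0.0818. Without si-SCR replicate 3 it was -0.71 (SE 0.11, adjusted p = 0.00613, the lowest of the 17 alternatives, which reached up to 0.289), and without si-SCR replicate 1 it was -0.45 (adjusted p = 0.171). BCHE, the gene of the related butyrylcholinesterase, was far more abundant, at 113, 107 and 119 FPKM in the controls and 116 and 113 FPKM after knock-down, and was singled out after its values were seen. Its groups overlapped and its log2 fold change was 0.022 (interval -0.10 to 0.15).

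**Figure D3:**
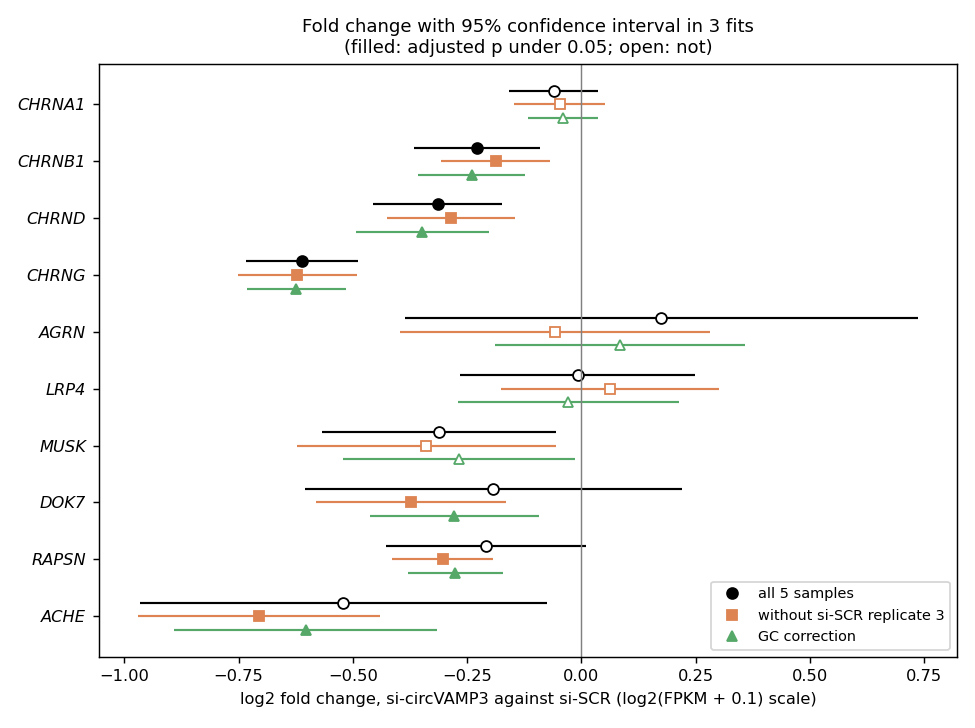
The horizontal axis is the log2 fold change, si-circVAMP3 against si-SCR, for each of the 10 genes; points are estimates, lines are 95% confidence intervals, and filled points have an adjusted p under 0.05. Black circles use all 5 libraries, orange squares leave out si-SCR replicate 3 and green triangles apply the GC correction; CHRNB1, CHRND and CHRNG are filled in all 3 fits, and DOK7, RAPSN and ACHE only in the latter 2.

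Without control replicate 3, the count of called genes among the 10 went from 3 to 6, all lower, beside 15.0% of all tested genes called lower in that fit. The GC correction with all 5 libraries kept also called 6 of the 10 on the lower side, beside 16.8% of all genes. In both fits the added genes were DOK7, RAPSN and ACHE, which were also among the 4 GC-rich genes. After the GC correction the log2 fold changes were -0.28 for DOK7 (adjusted p = 0.0316), -0.28 for RAPSN (adjusted p = 0.00361) and -0.60 for ACHE (adjusted p = 0.00917). AGRN, the other GC-rich gene, was at 0.085 (interval -0.19 to 0.36). Counted by values alone, 6 of the 10 genes (CHRNA1, CHRNB1, CHRND, CHRNG, MUSK and ACHE) had both knock-down libraries under every control, beside 28.6% of all tested genes. Leaving out si-circVAMP3 replicate 2 leaves 1 library in that group, assumed to vary like the controls. The log2 fold changes were then -0.57 for CHRNG, -0.24 for CHRND and -0.23 for CHRNB1. The calls of CHRND and CHRNB1 were lost in that fit, as given above.

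By level per kilobase, the order in the controls was CHRNA1, CHRND, RAPSN, CHRNB1, CHRNG, AGRN, DOK7, LRP4, MUSK and ACHE. Only MUSK (1.79 to 2.11 FPKM) and ACHE (1.19 to 1.87 FPKM) were neighbours with overlapping control ranges. After circVAMP3 knock-down AGRN, at 9.56 and 10.1 FPKM, stood above CHRNG, at 9.34 and 8.77 FPKM, and the rest of the order was as in the controls.

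The other genes of the junction were described from lists that follow its parts, and their counts stand beside the 14.7% of all tested genes called lower and the 12.8% called higher with all 5 libraries. Over all genes tested, limma-voom called 2031 higher and 2190 lower, and the GC correction called 2330 and 2301. Leaving out si-SCR replicate 3 gave 1959 higher and 2053 lower. At an unadjusted p under 0.05 by limma there were 5536 genes in either direction. These lists are small, and nothing particular to a list is read from its count. Among 12 other nicotinic receptor subunits, 3 were in the table and tested, and limma called none of them, also at an unadjusted p under 0.05 and by limma-voom. CHRNA5, the most abundant of these neuronal subunits, stood at 4.63, 4.38 and 4.28 FPKM in the controls and at 4.18 and 4.35 FPKM after knock-down. Its overlapping groups gave a log2 fold change of -0.052 (interval -0.22 to 0.11). The list's median was -0.052, with CHRNA9 and CHRNA10 under 1 FPKM in every library.

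For folding and assembly of the receptor, 6 of 8 listed genes were tested, 1 was higher and 1 was lower, and the median was 0.019. After the GC correction 2 were higher and 1 was lower. BSG, a membrane glycoprotein that escorts transporters to the cell surface, rose from 110.1, 104.6 and 84.5 FPKM to 133 and 138 FPKM (log2 fold change 0.45, adjusted p = 0.0230). BSG is also GC-rich (62.54%), with a log2 deviation of -0.345 in si-SCR replicate 3. Over the 17 alternatives its log2 fold change ranged from 0.34 to 0.53. UBXN2A, which is involved in receptor traffic, fell from 4.66, 4.85 and 4.30 FPKM to 3.36 and 3.39 FPKM (log2 fold change -0.44, adjusted p = 0.00844). In neither gene did the groups overlap, beside 28.6% of all tested genes without overlap on the lower side alone.

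Downstream of MuSK, 4 of 19 tested genes fell and none rose, with a median of -0.091, beside 14.7% and 12.8% of all tested genes. CTNNB1, the beta-catenin gene, went from 51.4, 52.7 and 53.7 FPKM to 35.4 and 33.2 FPKM, a log2 fold change of -0.62 (adjusted p = 0.000469). The Src-family kinase gene FYN went from 6.71, 6.48 and 6.53 FPKM to 4.42 and 4.36 FPKM, a log2 fold change of -0.57 (adjusted p = 0.00143). CDC42, a small GTPase of the actin skeleton, had a log2 fold change of -0.26 (adjusted p = 0.00622). CRKL, an adaptor recruited by Dok-7 and named after its value was seen, also had -0.26 (adjusted p = 0.00640). These 4 genes, named because they were called, showed no overlap between the groups. Of all tested genes, 28.6% had both knock-down libraries under every control. CTNNB1 changed about as much as CHRNG did. No gene of this list was called higher by limma, against 3 at an unadjusted p under 0.05, 3 by limma-voom and 4 after the GC correction. Over all genes tested, limma-voom called 2031 higher and the GC correction 2330, and 5536 genes had an unadjusted p under 0.05 in either direction.

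In the synaptic basal lamina and the anchors of the membrane, 4 of 12 tested genes fell, beside 14.7% of all tested genes, and the median was -0.24. Without si-SCR replicate 3, and also after the GC correction, 5 were called lower, beside 15.0% and 16.8% of all tested genes. DAG1, the dystroglycan gene, fell from 41.5, 45.1 and 38.8 FPKM to 31.0 and 28.3 FPKM (log2 fold change -0.49, adjusted p = 0.00487). SNTB1 for beta-1-syntrophin fell by 0.45 on the log2 scale (adjusted p = 0.00421), and DTNA for alpha-dystrobrevin fell by 0.43 (adjusted p = 0.0170). All these proteins belong to the dystrophin-associated complex, which ties the receptor clusters to the skeleton of the cell. COLQ, the collagen tail that anchors acetylcholinesterase, was named after its value was seen and went from 1.62, 1.67 and 1.81 FPKM to 1.34 and 1.18 FPKM (log2 fold change -0.40, adjusted p = 0.0329). The COLQ call was lost without any 1 of the 5 libraries, with adjusted p-values from 0.0525 to 0.187. The count on the higher side was 0 by limma and by limma-voom, and 1 at an unadjusted p under 0.05 and after the GC correction.

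Of the 9 genes of neuregulin signalling and GABP, the route by which nerve-derived neuregulin was proposed to drive synaptic transcription, ERBB3 alone was called, and the median was -0.13. Without si-SCR replicate 3, 2 genes were called higher and 0 lower, beside 1959 and 2053 of all tested genes. After the GC correction 1 was called higher and 1 lower, beside 2330 and 2301 of all tested genes. ERBB3, a neuregulin receptor, rose from 7.39, 7.73 and 8.77 FPKM to 10.5 and 10.4 FPKM (log2 fold change 0.39, adjusted p = 0.0135). No gene of this list was called lower by limma, where 4 had an unadjusted p under 0.05 and limma-voom called 2.

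Among the myogenic and activity-dependent regulators of receptor genes, 11 were tested, 2 fell and the median was -0.096. Without si-SCR replicate 3, 3 were called lower. MYOG, which encodes myogenin, fell from 175, 179 and 149 FPKM to 100.7 and 96.6 FPKM, so the groups lay far apart. Its log2 fold change was -0.76 (SE 0.081, adjusted p = 0.00159) and -0.84 without si-SCR replicate 3. TCF12, an E-protein partner of the MyoD family, had a log2 fold change of -0.20 (adjusted p = 0.0267). MYOD1 had 115, 105 and 84.3 FPKM in the controls and 106 and 127 FPKM after knock-down, overlapping groups with a log2 fold change of 0.20 (interval -0.13 to 0.52). Without si-SCR replicate 3 the value was 0.070 (interval -0.14 to 0.28). No regulator was called higher, against 1 at an unadjusted p under 0.05, 1 by limma-voom and 1 after the GC correction.

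Of 5 glycosylation genes whose mutations cause congenital myasthenic syndromes, disorders of junction transmission, 1 rose and 2 fell, with a median of 0.015, beside 12.8% and 14.7% of all tested genes. ALG2, a mannosyltransferase, rose from 11.7, 12.4 and 11.9 FPKM to 14.8 and 14.7 FPKM (log2 fold change 0.30, adjusted p = 0.00725). GMPPB, which makes GDP-mannose, had a log2 fold change of -0.38 (adjusted p = 0.00820), and GFPT1, the entry enzyme of the hexosamine pathway, had -0.32 (adjusted p = 0.0121). None of the 3 showed overlap between groups, beside 28.6% of all tested genes without overlap on the lower side alone.

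**Figure D4:**
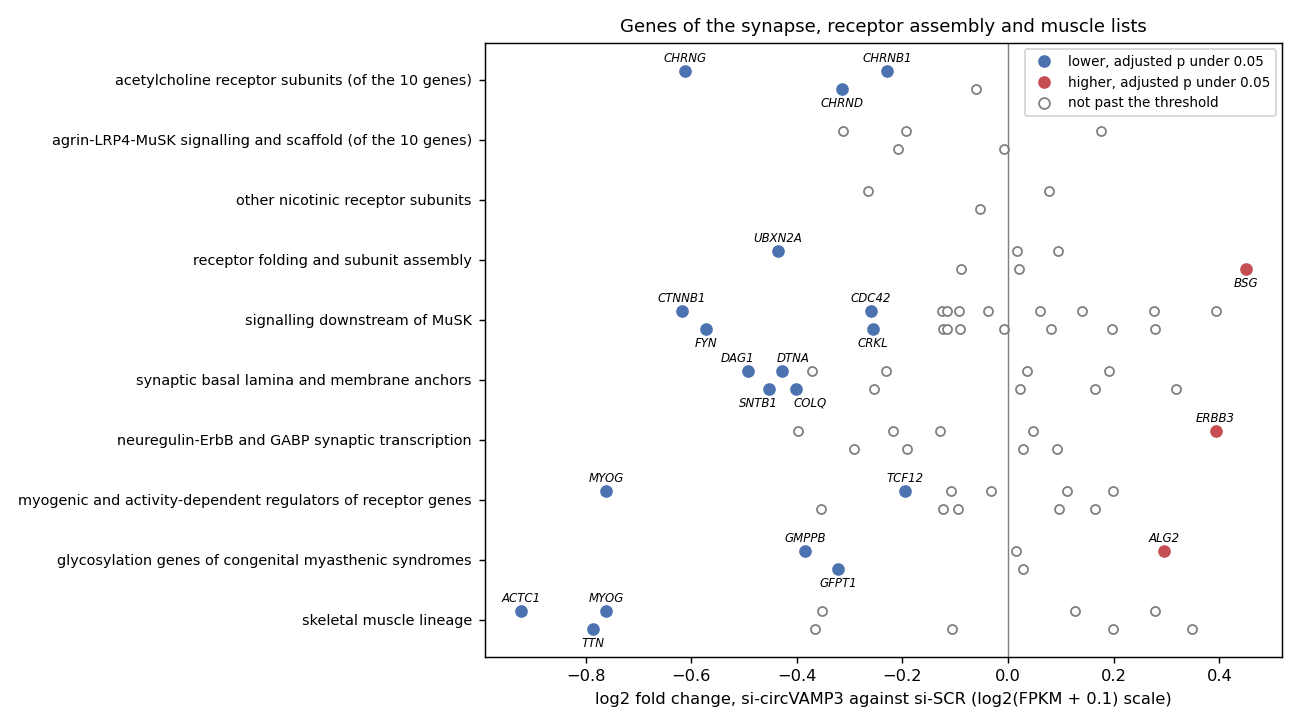
The horizontal axis is the log2 fold change, si-circVAMP3 against si-SCR, and each line of points is a gene list, from the receptor subunits at the top to the skeletal muscle list at the bottom. Blue points fell and red points rose at an adjusted p under 0.05 with all 5 libraries, and open points did not pass; CHRNG at -0.61 lies near CTNNB1 at -0.62 and FYN at -0.57, with MYOG at -0.76 further left.

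The skeletal muscle list was mixed in direction, with its calls on the lower side. Its summed level was 1166, 1186 and 1049 FPKM in the si-SCR libraries and 911 and 919 FPKM in the si-circVAMP3 libraries, and 3 of its 10 genes fell with none higher, beside 14.7% and 12.8% of all tested genes. ACTC1, the actin of immature muscle, fell from 313, 355 and 313 FPKM to 169 and 175 FPKM (log2 fold change -0.92, adjusted p = 0.000396). TTN, the gene of titin, had a log2 fold change of -0.79 (adjusted p = 0.0117), and MYOG, given above, is also on this list. Most of the lower sum lay in ACTC1, with group means of 327 and 172 FPKM, and in MYOG, with 168 and 98.6 FPKM. Other genes of the list were higher in sign without passing the test, among them TNNT1 (log2 fold change 0.13, interval 0.029 to 0.22, adjusted p = 0.0612), MYH8 (0.35, interval -0.053 to 0.75) and MYMK (0.28, interval -0.12 to 0.68), which were named after their values were seen. The list's median was -0.23, and 5 of its genes were called lower without si-SCR replicate 3 and after the GC correction, beside 15.0% and 16.8% of all tested genes. Its higher side was 1 gene at an unadjusted p under 0.05 and 1 by limma-voom. Over all genes tested, 5536 had such an unadjusted p in either direction and limma-voom called 2031 higher. Its part in the fall of the receptor genes was not tested.

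Genes of other cell types were few and low. The 3 of 5 fibroblast genes in the table summed to 1.87, 1.67 and 1.79 FPKM in the controls and to 1.65 and 1.57 FPKM after knock-down, with PDGFRA the most abundant and COL1A2 and LUM not listed. None of the 3 was called by limma or limma-voom or had an unadjusted p under 0.05. Of the epithelial genes KRT8 alone was in the table, at 0.316, 0.215 and 0.256 FPKM against 0.651 and 0.5803 FPKM (log2 fold change 0.99, adjusted p = 0.00706), and EPCAM, KRT18 and CDH1 were not. PECAM1 was the only endothelial gene listed, was not called and stood at 0.078 to 0.153 FPKM over all libraries, and none of 3 leukocyte genes was in the table. KRT8 stayed under 1 FPKM in every library, and the part of other cells in the results was not tested.

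For the called genes named from these lists, and for VAMP3, the log2 fold change kept its sign under each alternative in which the gene was tested. CTNNB1, FYN, DAG1, SNTB1, MYOG and ACTC1 stayed under an adjusted p of 0.05 in all 17 alternatives. Without si-circVAMP3 replicate 1, the adjusted p was 0.106 for BSG, 0.0911 for ERBB3, 0.0608 for ALG2, 0.0604 for KRT8, 0.0625 for UBXN2A, 0.0502 for CDC42, 0.0558 for CRKL, 0.102 for DTNA, 0.0557 for TCF12 and 0.0944 for GFPT1. Without si-circVAMP3 replicate 2, it was 0.126 for BSG, 0.0802 for ERBB3, 0.05799 for ALG2, 0.0612 for UBXN2A, 0.0583 for CDC42, 0.0546 for CRKL, 0.0844 for DTNA, 0.174 for TCF12, 0.0701 for GMPPB and 0.0850 for TTN. Without si-SCR replicate 2, it was 0.0532 for ERBB3, 0.0610 for DTNA, 0.0729 for TCF12 and 0.0506 for GFPT1.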

How the data were processed

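The authors made the deposited FPKM table from stranded poly-A+ paired-end libraries. According to the study's methods, reads were trimmed with Trimmomatic, aligned to GRCh38 with Ensembl 99 by STAR 2.5.2b and counted by strand with htseq-count, and genes of low CPM were removed. The authors then made FPKM values with edgeR's rpkm function. The methods call the samples biological replicates, and p-values here reflect the spread among these 5 samples.

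Gene symbols were available for 13783 of the 13822 genes. Positions, exonic lengths and GC content came from GENCODE v44 (GRCh38). From the deposited values, log2(FPKM + 0.1) was fitted with limma 3.58.1 in R 4.3.3 (moderated, prior variance following mean expression, two-sided, condition alone), on the 13681 genes with a mean of at least 0.1 FPKM. P-values were adjusted by Benjamini-Hochberg over all genes tested, and an adjusted p under 0.05 was called. Fold changes on this scale understate the change of low genes. Whole fragments were recovered from the FPKM values of 100% of genes within a relative tolerance of 1e-11, which gave the depth of each library and the limma-voom alternative. That fit, a GC correction by loess (span 0.5) and its combinations were added after seeing the data. Other alternatives were the pseudocount, the filter, the scaling, the variance trend, the replicate block, leaving out each library, and the study's fold rule.

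The 10 genes and all lists were chosen with earlier results of these data known. From each list, up to 3 called genes in each direction with the largest absolute log2 fold change were named, with VAMP3 and CHRNE whatever their values. The result of 1 marker list is not reported here. The main fit was tested on simulated data that had no GC drift in any library, and the alternatives were not.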

Additional observations from a re-analysis of the deposited data

How the results depend on the processing

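Over 17 alternatives for each of the 10 genes, 138 results kept their direction and their side of the threshold, 15 passed it newly, 6 no longer passed and 11 changed sign. The replicate block and the fit without si-SCR replicate 3 gave the same log2 fold changes, and nearly the same after GC correction. They are not separate alternatives in these counts. CHRNG was called in all 17, from -0.66 to -0.57. All 11 changes of sign were in LRP4 and AGRN, whose values were never called. LRP4 was at 0.013 median centred, 0.021 quantile normalised, 0.063 in the replicate block, 0.047 with GC correction and si-SCR replicate 3 left out, and 0.047 in the block with GC correction, and it ranged from -0.088 to 0.072 over the fits that leave out 1 library. AGRN was at -0.058 in the replicate block, -0.017 with GC correction and si-SCR replicate 3 left out and -0.015 in the block with GC correction, and it ranged from -0.058 to 0.41 over the fits that leave out 1 library. Without the variance trend, the adjusted p was 0.0780 for CHRNB1, 0.0586 for BSG and 0.0768 for TCF12.

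Leaving out 1 library moved the genes called to between 1266 and 4012, those higher to between 456 and 1959, those lower to between 803 and 2053, and those among the 10 to between 1 and 6. Without a si-circVAMP3 library, the lone sample left was assumed to vary like the controls. The study's fold rule kept 793 genes, 227 higher and 566 lower, and 1 of the 10. The GC correction called 6 of the 10, also with si-SCR replicate 3 left out and also in the replicate block with GC correction. No other library has the number of si-SCR replicate 3, so the block takes that library out of the comparison. Agreement between the block and the fits without that library was therefore fixed in advance. The groups share replicate numbers 1 and 2 only, and whether same-numbered samples were paired is not stated in the sources used. The differences of replicates 1 and 2 in either group had an r across genes of -0.071. Genes are not independent replicates, so this value cannot settle whether the samples pair. With the replicate block 2868 genes were called and 4 of the 10, where CHRNB1 had an adjusted p of 0.0613, RAPSN 0.0181 and ACHE 0.0197. Other calls lost in the block were DTNA (0.0585), TCF12 (0.0674) and COLQ (0.0908), of which TCF12 (0.0544) and COLQ (0.0539) were also lost in the block with GC correction. Limma-voom called 4221 genes. The cause of these differences was not tested. ACHE rested on as few as 77 fragments in a library.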
